A study of Mus musculus with 2 samples.

Results

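The CDK inhibitors and G1 cyclins described here are 9 mouse genes of 16218 in the deposited table, taken by symbol: the CIP/KIP inhibitors Cdkn1a and Cdkn1b, the INK4 inhibitors Cdkn2c and Cdkn2d, the D-type cyclins Ccnd1, Ccnd2 and Ccnd3, and the E-type cyclins Ccne1 and Ccne2. All 9 were found and all 9 passed the abundance minimum used below. The table holds 2 libraries of polyadenylated RNA from C57BL/6J bone marrow-derived macrophages, which were grown for 5 days with 10% fetal bovine serum and 10% L929 supernatant and then given 10 ng/ml lipopolysaccharide (LPS) for 3 h. The library called WT came from Lyz2-Cre mice, and the library called TKO from mice that also carried mir-106a~363-/-, mir-106b~25-/- and mir-17~92flox/flox, so that both genotypes share the Cre. Of the 3 microRNA clusters, 2 are deleted in the germ line and mir-17~92 is removed where Lyz2, a myeloid gene, drives the Cre. The age and sex of the mice, and whether marrow was pooled, are not given in the sources used here. With 1 library per genotype no difference below has a replicate check, and genotype cannot be told apart from other differences between the cultures.

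Entry into S phase is set by cyclin-dependent kinases (CDKs) and their partners. Growth factor signals raise D-type cyclins, which pair with CDK4 and CDK6 and begin to inactivate the retinoblastoma protein, and E-type cyclins with CDK2 complete that step and free E2F factors to drive replication genes. INK4 proteins bind CDK4 and CDK6 themselves, while CIP/KIP proteins bind cyclin-CDK complexes and are known above all for blocking CDK2. In marrow cultures the growth factor is macrophage colony-stimulating factor, and activated macrophages are known to leave the cycle and to make much Cdkn1a. The microRNAs of the miR-17 family are known repressors of Cdkn1a and of Ccnd1, so the comparison bears on whether the transcripts of the members differed without these microRNAs.

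The sequences that link the deleted clusters to the members are the microRNA seeds (bases 2 to 8, in capitals) and their matches. RefSeq (GRCm38.p6) gives these mature microRNAs, 5′ to 3′, for the clusters, with the 6 members of the miR-17 family first. They come from mir-17~92 (miR-17-5p and miR-20a-5p), from mir-106a~363 (miR-106a-5p and miR-20b-5p) and from mir-106b~25 (miR-93-5p and miR-106b-5p), and all 6 have the seed AAAGUGC.
miR-17-5p: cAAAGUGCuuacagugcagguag
miR-20a-5p: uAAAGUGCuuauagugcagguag
miR-106a-5p: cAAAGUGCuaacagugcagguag
miR-20b-5p: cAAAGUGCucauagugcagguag
miR-93-5p: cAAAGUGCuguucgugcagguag
miR-106b-5p: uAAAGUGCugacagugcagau

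The miR-19 and miR-92 families are shown because members also had matches to them. The 2 miR-19 microRNAs share the seed GUGCAAA, and miR-25-3p, miR-92a-3p and miR-363-3p share AUUGCAC.
miR-19a-3p: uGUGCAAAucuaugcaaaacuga
miR-19b-3p: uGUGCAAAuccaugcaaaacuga
miR-25-3p: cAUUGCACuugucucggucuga
miR-92a-3p: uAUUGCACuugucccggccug
miR-363-3p: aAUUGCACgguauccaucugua

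A match is the 7 bases opposite the seed, searched on the sense strand of the longest 3' UTR that GENCODE M21 (GRCm38) gives for each gene. Of the 9 members, 5 had a match to at least 1 of these families, against 34.3% of the 10875 measured genes with an annotated 3' UTR. A match to the miR-17 family (GCACTTT) was found in 3 of 9, against 15% of those genes, and a match to the miR-19 family (TTTGCAC) in 3 of 9, against 13.5%. The miR-92 family (GTGCAAT) had a match in 1 of 9, against 7.69%, and the miR-18 family (GCACCTT) in 0 of 9, against 9.43%. These shares were not matched for 3' UTR length, and a longer 3' UTR gives more room for a match. By length among measured genes, Ccnd2 stood at percentile 96.0, Cdkn1b at 87.7 and Ccnd1 at 79.7. The other members with a match, Ccne2 and Cdkn1a, stood at 61.9 and 53.4. A match is a description of these letters and does not show that a microRNA acts there. The matches, in capitals within 26 bases of context, were these.
Cdkn1a, miR-17 family, chr17:29099814-29099839, plus strand: cctcagacctgaataGCACTTTggaa
Ccnd1, miR-17 family, chr7:144931672-144931697, minus strand: ccattccatttcaaaGCACTTTtggt
Ccnd2, miR-17 family, chr6:127129336-127129361, minus strand: cattccattagaaaaGCACTTTgaaa
Ccnd1, miR-19 family, chr7:144931001-144931026, minus strand: aacaacagtaggtaaTTTGCACacct
Ccnd2, miR-19 family, chr6:127128820-127128845, minus strand: ttttgttttttttttTTTGCACaatt
Cdkn1b, miR-19 family, chr6:134922247-134922272, plus strand: gactataatgcagtaTTTGCACccca
Ccne2, miR-92 family, chr4:11203575-11203600, plus strand: ctatactcttgaatgGTGCAATttgt

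Ccnd1 and Ccnd2 each had 1 match to both the miR-17 and the miR-19 family, in that order along the UTR. In the 15 bases upstream of the miR-17 match, both held the same run of 9 bases, cattccatt. The match lay at base 925 of 2676 in Ccnd1 and at base 989 of 5173 in Ccnd2. In Cdkn1a it lay at base 436 of 1334. Cdkn2c (373 bases), Ccne1 (531 bases), Cdkn2d (907 bases) and Ccnd3 (915 bases) had the shortest 3' UTRs of the 9 and no match to any of the 4 families.

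Levels are compared between genes by the FPKM the authors deposited, which is per transcript length, and between libraries by CPM, the estimated count per 1000000 counts of the library (10764519 for WT and 10836855 for TKO). Folds are ratios of CPM followed by their 95% counting interval. The interval covers counting error only and holds no variation between mice, cultures or libraries. It also treats counts as independent, although reads amplified by PCR are not independent molecules. A gene was called when its log2 of (TKO CPM + 0.5) over (WT CPM + 0.5) was past 1.5-fold and the interval excluded equality. Over the 11662 genes whose mean CPM was 1 or more (measured genes), 5.26% were called lower in TKO and 2.83% higher. Of the 9 members, 2 were called lower, Cdkn2d and Ccne1, and 0 higher. The whole interval lay below equality for 4 of 9 members (Cdkn1b, Cdkn2d, Ccnd3 and Ccne1), against 20.2% of measured genes, and above it for 1 of 9 (Cdkn1a), against 14.1%. Of the intervals below equality, that of Ccnd3 came closest to it (1.02 to 1.56-fold lower). Log2 ratios were below 0 for 8 of 9 members, against 57.4% of all measured genes, and the median was −0.33 for the members and −0.04 for all measured genes.

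In both libraries Cdkn1a stood far above the other members. It took 89.8% of the members' summed FPKM in WT and 92.3% in TKO, and ranked 52nd among all genes by FPKM in each library. In the WT library the order below it was Cdkn2c (25.2 FPKM), Cdkn1b (20.25), Ccnd2 (19.99), Cdkn2d (16.1), Ccnd3 (9.67), Ccne1 (4.19), Ccne2 (2.31) and Ccnd1 (2.21). In that order Cdkn1b and Ccnd2 had overlapping counting intervals, as did Ccne2 and Ccnd1. In the TKO library Ccnd2 (18.5 FPKM) stood above Cdkn1b (14.4), and their intervals did not overlap. Cdkn2d (8.24) overlapped with Ccnd3 (7.66) there, and Ccne1 (2.15), Ccnd1 (1.91) and Ccne2 (1.70) all overlapped with each other.

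**Figure D1:**
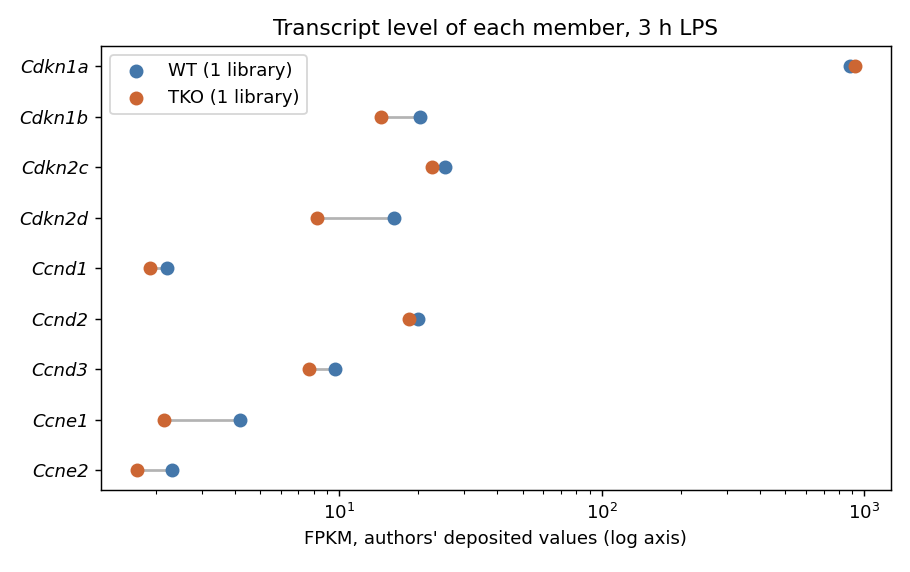
Level of each of the 9 members (rows) as the authors' FPKM on a log axis, with 1 point per library (blue WT, orange TKO) and a grey line joining them. Cdkn1a lies at 879 and 919 FPKM, and every other member lies between 1.70 and 25.2 FPKM, with the TKO point to the left of the WT point.

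Cdkn1a encodes p21, the CIP/KIP inhibitor that p53 and inflammatory signals induce. The gene (12575) lies on chromosome 17 from 29090976 to 29100727 (GRCm38). Its counts were 18062 in WT and 18993 in TKO, or 1678 and 1753 CPM. It was 1.04-fold higher in TKO (1.02 to 1.07). At this depth the interval is narrow, and it excluded equality, but the difference is far inside 1.5-fold. Cdkn1a was the only member with a log2 ratio above 0.

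Cdkn1b encodes p27, the CIP/KIP inhibitor that holds resting cells out of the cycle and is removed by the SKP2-CKS1 ubiquitin ligase. The gene (12576) lies on chromosome 6 from 134920401 to 134925513. Its counts were 525 in WT and 377 in TKO, or 48.8 and 34.8 CPM. It was 1.40-fold lower in TKO (1.23 to 1.60), short of the 1.5-fold used for a call. Within each library, which needs no scaling between them, Cdkn1a was 43.4 times Cdkn1b by FPKM in WT and 63.6 times in TKO. The quotient of these ratios from counts was 1.46, with an interval of 1.28 to 1.67.

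Cdkn2d encodes p19INK4d and Cdkn2c encodes p18INK4c, inhibitors of CDK4 and CDK6. Cdkn2d (12581), on chromosome 9 from 21288410 to 21291407, gave 218 counts in WT and 112 in TKO, or 20.3 and 10.3 CPM. It was 1.96-fold lower in TKO (1.55 to 2.48), the member farthest from equality. Cdkn2c (12580), on chromosome 4 from 109660876 to 109667189, gave 540 counts in WT and 489 in TKO, or 50.2 and 45.1 CPM. It was 1.11-fold lower, with an interval (0.982 to 1.26) that held equality. Cdkn2c was 1.56 times Cdkn2d by FPKM in WT and 2.74 times in TKO, a quotient from counts of 1.76 (1.36 to 2.28).

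**Figure D2:**
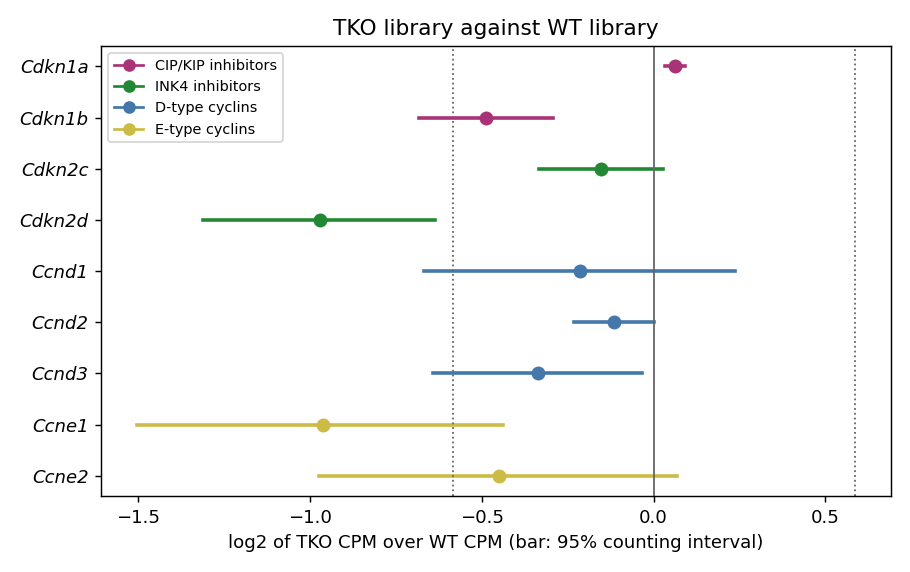
Log2 of the TKO CPM over the WT CPM for each member (points, coloured by group) with its 95% counting interval (bars). The solid line marks equality and the dotted lines 1.5-fold. Cdkn2d and Ccne1 lie past the lower dotted line with intervals below equality, and Cdkn1a alone lies above 0.

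D-type cyclins couple growth factor signals to the cycle. Ccnd2 (12444, chromosome 6, 127125162 to 127152193) was the main one, with 1255 counts in WT and 1167 in TKO, or 117 and 108 CPM. It was 1.08-fold lower (0.999 to 1.17), an interval that held equality. Ccnd3 (12445, chromosome 17, 47505051 to 47599691) had 207 and 165 counts, or 19.2 and 15.2 CPM, and was 1.26-fold lower (1.02 to 1.56). Ccnd1 (12443, chromosome 7, 144929931 to 144939925) had 91 and 79 counts, or 8.45 and 7.29 CPM, and was 1.16-fold lower with an interval of 0.848 to 1.59. The Ccnd1 interval held both equality and 1.5-fold lower, so its difference was not detectable at this depth.

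The make-up of the D-type cyclins was close in both libraries. By FPKM, Ccnd2 made up 62.7% of their sum in WT and 65.9% in TKO, Ccnd3 30.3% and 27.3%, and Ccnd1 6.93% and 6.81%. By counts, which are not per length, Ccnd2 made up 80.8% in WT (exact Clopper-Pearson 95% interval 78.8 to 82.7) and 82.7% in TKO (80.6 to 84.6). None of the 3 D-type pairs had a quotient of ratios whose interval excluded 1. For Ccnd2 over Ccnd3 it was 1.17 (0.937 to 1.45), for Ccnd1 over Ccnd3 1.09 (0.757 to 1.57) and for Ccnd1 over Ccnd2 0.934 (0.684 to 1.28).

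**Figure D3:**
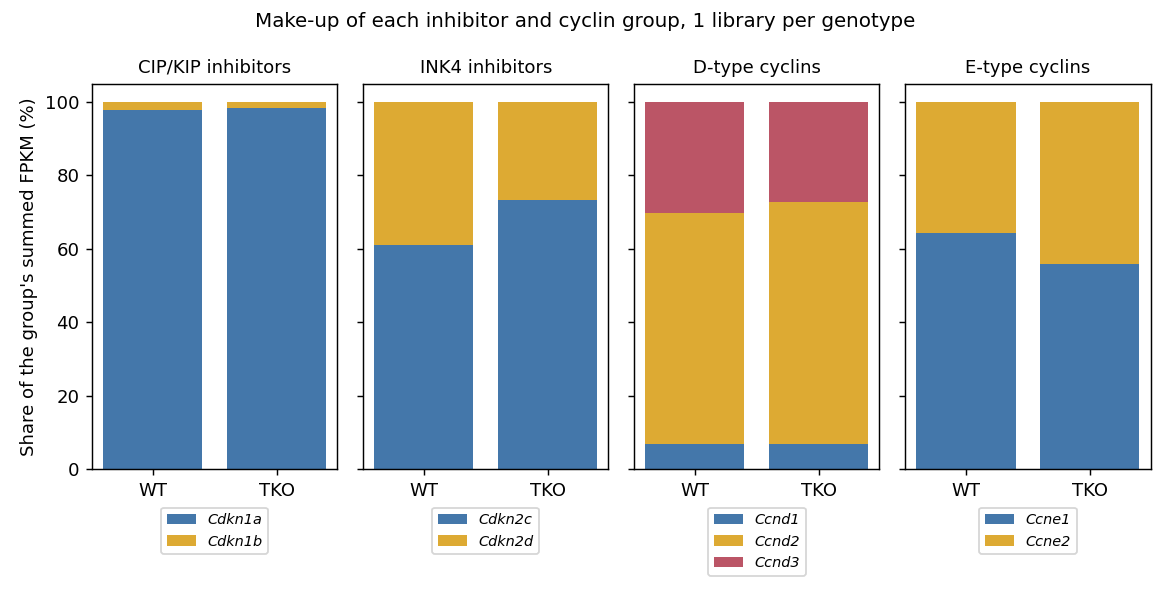
Share of each gene in the summed FPKM of its group (percent, stacked bars) in the WT and TKO libraries, with 1 library per bar. Cdkn2d makes up 39.0% of the INK4 pair in WT and 26.8% in TKO, while Ccnd2 makes up 62.7% and 65.9% of the D-type cyclins.

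E-type cyclins activate CDK2 at the start of S phase and are themselves E2F-driven genes. Ccne1 (12447), on chromosome 7 from 38097984 to 38107534, gave 91 counts in WT and 47 in TKO, or 8.45 and 4.34 CPM. It was 1.95-fold lower in TKO (1.36 to 2.83). Ccne2 (12448, chromosome 4, 11191351 to 11204779) had 76 and 56 counts, or 7.06 and 5.17 CPM, and was 1.37-fold lower with an interval (0.955 to 1.97) that held equality. Ccne1 was 1.81 times Ccne2 by FPKM in WT and 1.26 times in TKO. The quotient from counts, 0.701 (0.428 to 1.15), held 1, so that a difference between the E-type cyclins in how far they were lower was not detectable at this depth.

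Counts of some members can hold reads of a neighbour, since the strand setting of the counting is not given in the sources used here. In GENCODE M21, exons of Ccnd1 share 1100 bases with the opposite-strand gene LTO1 (84 and 92 counts, listed as Oraov1), those of Ccne2 share 609 bases with Ints8 (413 and 368 counts) and those of Ccnd3 share 361 bases with Bysl (239 and 242 counts). If the counting ignored strand, reads from these stretches cannot be told apart between the partners. Exons of Ccnd2 share 372 and 368 bases with antisense transcripts, of which 9330179D12Rik had 3 and 1 counts, and those of Cdkn1a share 273 bases with an opposite-strand transcript. The called members, Cdkn2d and Ccne1, shared no exonic base with another annotated gene, nor did Cdkn1b and Cdkn2c.

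In the authors' deposited table, whose p-values compare these 2 libraries and not the genotypes, Cdkn2d (adjusted 5.62e-08), Cdkn1b (7.04e-06) and Ccne1 (0.00137) were lower with adjusted values under 0.05. That holds for 3 of 9 members in the lower direction, against 10.8% of all 16218 genes in the authors' deposited table. This share, and that for the higher direction below, include genes under the abundance minimum that all 9 members passed. They are therefore not shares of a like set of genes, and the share among measured genes was not worked out. In the same authors' deposited table Cdkn1a was higher at 0.000302 with a log2 ratio of only 0.06, in a direction in which 7.71% of all genes passed. The other 5 members had adjusted values above 0.05 in the authors' deposited table, from 0.111 for Ccnd3 to 0.624 for Ccnd1.

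**Figure D4:**
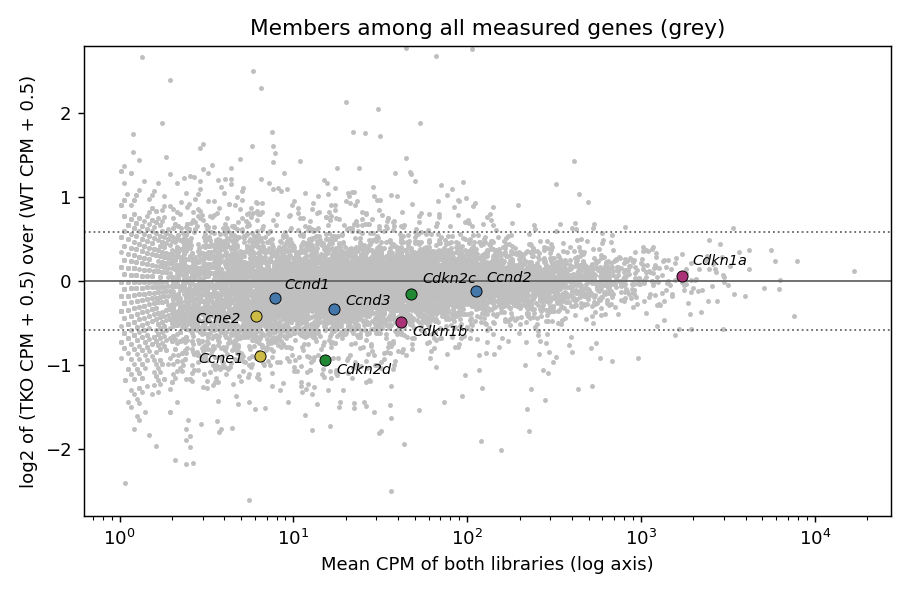
Log2 ratio of TKO over WT (vertical, with 0.5 CPM added) against the mean CPM of both libraries (log axis) for all measured genes (grey) and the 9 members (coloured by group as in the plot of ratios). The solid line is equality and the dotted lines 1.5-fold, and 20 genes lie beyond the range of 2.8 in size that is drawn. The spread of the grey points narrows with abundance, and Cdkn1a lies near 0 at the abundant end while Ccne1 and Cdkn2d lie below the lower dotted line.

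Of 9 measured genes for G1 kinases and their regulation, 0 were called and 8 had log2 ratios below 0. The whole interval lay below equality for 4 of these 9 genes, and their median was −0.18. Cdk6, the most abundant of them, had 2724 and 2112 counts and was 1.30-fold lower (1.23 to 1.37). Cdk4 was 1.19-fold lower (1.07 to 1.33) and Cdk2 1.14-fold lower (0.940 to 1.38), both named after their values were seen, as the kinases the members bind. Of 5 other genes with a Cdkn symbol, 1 was called higher and 0 lower. The called gene, Cdkn2b, which encodes p15INK4b, had 12 and 27 counts and was 2.23-fold higher (1.09 to 4.84). For Cdkn3 (1.45-fold lower, 1.17 to 1.80) and Cdkn2aip (1.42-fold lower, 1.04 to 1.96) the whole interval lay below equality. Cdkn1c (60 and 65 counts) and Cdkn2a (12 and 13 counts) were each 1.08-fold higher. Their intervals, 0.746 to 1.55 and 0.453 to 2.58, held equality. The median log2 ratio of this list was 0.07. Cdkn3, Cdkn2aip, Cdkn1c and Cdkn2a were named after their values were seen.

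Genes that turn over the members or act downstream of them came next. Among 16 genes for the turnover of G1 cyclins and inhibitors, the median was −0.05 and 1 was called. This was Cks1b, the cofactor for removal of p27, at 1.60-fold lower (1.33 to 1.92). Of 13 pocket protein and E2F genes, 2 were called lower and 0 higher, with a median of −0.13. These were the repressive E2F genes E2f7, 1.54-fold lower (1.15 to 2.08), and E2f8, 1.52-fold lower (1.32 to 1.75). Of 18 E2F-driven replication genes, 15 had log2 ratios below 0, with a median of −0.33, and 1 was called, the thymidine kinase gene Tk1 at 1.57-fold lower (1.31 to 1.89).

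All 6 measured genes of the S, G2 and M phase list had log2 ratios below 0, with a median of −0.42, and Ccnf was called at 1.56-fold lower (1.28 to 1.91). Of 12 mitotic genes 11 were below 0, with a median of −0.38, and the kinase gene Aurka was called at 1.68-fold lower (1.44 to 1.95). These medians stood beside −0.33 for the members and −0.04 for all measured genes, and 0 genes of these lists were called higher. In bulk RNA, fewer cycling cells and less RNA per cycling cell cannot be told apart.

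**Figure D5:**
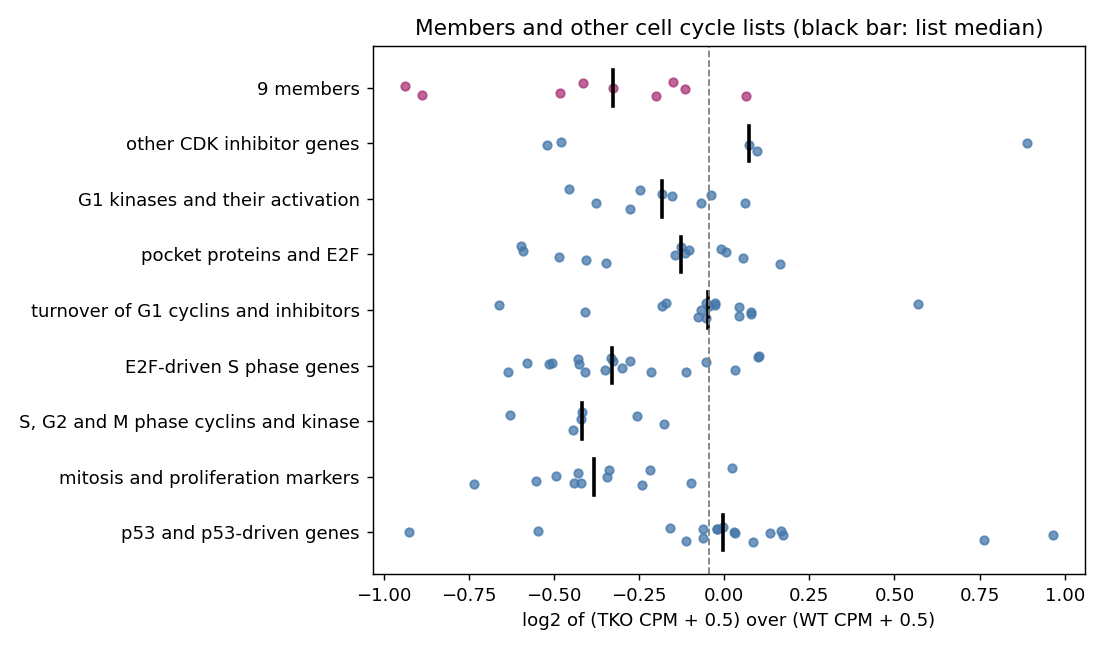
Log2 ratio of TKO over WT (0.5 CPM added) for the 9 members (purple) and for the measured genes of 8 cell cycle lists (blue), 1 point per gene, with the list median as a black bar. The dashed line is the median of all measured genes, −0.04. The medians of the members (−0.33), the replication (−0.33), later cyclin (−0.42) and mitotic (−0.38) lists lie to its left, and that of the p53 list (0.00) lies near it.

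The p53 list was examined beside Cdkn1a, which p53 induces. Of its 17 measured genes, 9 had log2 ratios below 0 and 8 above, with a median of 0.00. Of these, 2 were called higher: the stress cytokine gene Gdf15 had 35 and 74 counts and was 2.10-fold higher (1.39 to 3.24), and Trp53inp1 had 44 and 79 counts and was 1.78-fold higher (1.22 to 2.64). Phlda3, an inhibitor of AKT, had 35 and 16 counts and was the 1 gene called lower, 2.20-fold (1.19 to 4.26). Among 14 measured genes of macrophage growth factor signalling and the FOXO factors, which induce Cdkn1b, 1 was called: the immediate-early gene Fos was 3.20-fold lower (2.39 to 4.36). The median of that list was −0.03.

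The labelled cell type was checked against its markers. All 12 macrophage markers were measured and 0 were called, and their summed level was 8921 CPM in WT and 9351 in TKO. Csf1r, the receptor for the growth factor of these cultures, had 27207 and 30290 counts and was 1.11-fold higher (1.09 to 1.12). Markers of fibroblasts and stroma, cells that also use D-type cyclins, were mostly lower in the TKO library. Of 13 measured markers of fibroblasts and stroma, 10 were called lower and 0 higher. Their summed level was 574 CPM in WT and 242 in TKO, and Col1a1, the main fibrillar collagen gene, was 3.76-fold lower (3.42 to 4.14). Pdgfrb (478 and 510 counts), Thy1 (33 and 39) and Pdgfra (32 and 30), named after their values were seen, were not called. None of the 14 stromal markers was at 0. The part of stromal cells in the members' differences was not tested.

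Markers of other blood cells were low. Summed levels in WT and TKO were 6.69 and 5.91 CPM for 8 neutrophil markers, 5.85 and 4.15 CPM for the 7 T, NK and B cell markers in the table, and 5.30 and 3.23 CPM for the 5 erythroid and megakaryocyte markers in the table. Of the neutrophil markers Ly6g was at 0 in WT, and of the erythroid and megakaryocyte markers Klf1 and Gp9 were at 0 in TKO. The called genes of these lists were S100a9 (21 and 8 counts), Lck (32 and 10 counts) and Car2 (45 and 25 counts), all lower in TKO. Of 10 reference transcripts 0 were called, and Actb had 67401 and 68290 counts.

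Set beside the sequences printed above, the 3 members with a miR-17 family match were among the 4 nearest to equality. Their log2 ratios were 0.06 for Cdkn1a, −0.11 for Ccnd2 and −0.20 for Ccnd1, and the other one, Cdkn2c, was at −0.15. The median was −0.11 for these 3 members and −0.45 for the 6 without a match. Over all measured genes with an annotated 3' UTR it was 0.01 for the 1626 with a match and −0.05 for those without. Both called members, Cdkn2d and Ccne1, had no match to any of the 4 families. Cdkn1b, with a miR-19 family match, and Ccne2, with a miR-92 family match, had log2 ratios of −0.48 and −0.42. Ccne2 also had a miR-17 family match when bases 2 to 7 followed by A were counted. The Ccnd1 interval (0.848 to 1.59-fold lower) held the folds of Ccnd3, Ccne2 and Cdkn1b, so its place among the 4 nearest was not resolved. With 9 genes these are values side by side, and no member with a miR-17 family match was 1.5-fold apart in either direction.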

How the data were processed

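Polyadenylated RNA was sequenced in 1 library per genotype. Per the submitters' processing notes, RSEM 1.2.12, Bowtie2 2.2.5 and HISAT2 2.0.4 were used with build mm10, in roles not stated; the sources used here do not give the annotation, filters or strand setting. The authors deposited estimated counts per gene, which were rounded here (all 9 members were whole in both libraries). The authors also deposited FPKM, with 0.01 for 0, and its log2 ratio of TKO over WT, per the file headers. A p-value and an adjusted p-value, treated as a score since it reaches 1.04, come from the authors' deposited comparison, whose test is not given. The gene length column was not used here.

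The 1 entry without a symbol was left out, and 23 symbols turned into dates were restored from RefSeq. CPM used library totals (10764519 for WT, 10836855 for TKO). Measured genes are those whose mean CPM was 1 or more. Intervals are exact conditional binomial (Clopper-Pearson, 95%), exact Poisson for levels, and from the 4 counts on a log scale for quotients of ratios. With 1 library a group there was no test across samples, and no p-values were made. Intervals and calls were tested on simulated data, drawn under the same counting model that the intervals assume. The simulation held no PCR duplicates and no variation between cultures, so it checks the computation and not the calls made here. Alternatives were TMM (edgeR 4.0.16) and median-of-ratios scaling, FPKM, other pseudocounts, filters and a 2-fold limit, and other site definitions. Python 3.11.15, numpy 2.4.6, pandas 2.3.3 and scipy 1.17.1 were used.

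Transcript sequences and 3' UTRs came from GENCODE M21 (GRCm38, the assembly of mm10) and microRNAs from RefSeq GRCm38.p6. All 9 members are named; of each other list, the genes farthest from equality among those called (up to 4 in each direction) or, with none called, the most abundant. The members and lists were chosen with earlier results of these data known.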

Additional observations from a re-analysis of the deposited data

How the results depend on the processing

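Each member's log2 ratio was recomputed under TMM and median-of-ratios scaling, with the authors' FPKM and with pseudocounts of 0 and 1 CPM. Of these 45 values, 43 stayed inside the member's counting interval and 0 reversed a called direction. The other 2 were those of Cdkn1a, at 0.11 with TMM and 0.10 with median-of-ratios scaling against 0.06, all within 1.5-fold. These scalings moved the median of all measured genes by 0.05 and 0.03. Shifts of this size bring the nearer end of the Ccnd3 interval, 1.02-fold lower, to about equality or past it. In every one of these settings 8 of 9 members were below 0. The median of all measured genes was −0.04 in the main setting, 0.00 with TMM and −0.01 with median-of-ratios scaling. The share of all measured genes below 0 was not recomputed for these settings. The count of members called lower, 2, was 1 at a mean of at least 10 CPM and 0 at 2-fold. At 10 CPM, 6 members were left and Ccne1 was not among them. The share of all genes called was not worked out for that filter or for 2-fold, so these counts have no background to be read against. By counts, not per length, the share of D-type cyclins was 80.8% for Ccnd2 and 13.3% for Ccnd3 in WT, and 82.7% and 11.7% in TKO. With matches to bases 2 to 7 followed by A also counted, Ccne2 was added to the members with a miR-17 family match. No replicate could be left out with 1 library per genotype. No paired analysis was possible because each genotype has 1 library. Ccnd1, Ccne1 and Ccne2 had 47 to 91 counts per library, the lowest of the 9 members, and the intervals of Ccnd1 and Ccne2 held both equality and 1.5-fold lower.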
